A study of Mus musculus with 6 samples.

Results

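The nuclear receptors and coregulators that govern the genes of lipid oxidation and mitochondria were followed in RNA of sorted mouse kidney cells. The rule named *Ppara*, *Ppard*, *Pparg*, *Rxra*, *Rxrb*, *Ppargc1a*, *Ppargc1b*, *Esrra*, *Ncor1* and *Nrip1*, and took those with a row among the 12125 genes listed. Of the 10 regulators, 9 had a row, and *Pparg* was not analysed here. The test took genes with 10 or more normalized counts in 3 or more libraries, which left 8 of them and dropped *Rxrb*. The naming rule itself used no measured value, but the regulators were chosen with earlier results of these data known.

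The mice carried either Trf1+/+ or Trf1flox/flox, the gene of the telomere protein TRF1. All of them, controls included, also carried tamoxifen-inducible Cre recombinase under the Col1a2 promoter (Col1a2-CreERT2), which is active in collagen-producing cells, and a Katushka fluorescent protein (KFP) reporter that Cre switches on. Males and females of 6 to 8 weeks of age received tamoxifen 3 times a week for 8 weeks, and the sex of the mouse behind a given library is not stated in the labels. Cells were sorted from digested kidneys with antibodies to CD29 and to the fluorescent protein, and 500 cells gave 1 library. Whether the sequenced cells carried both markers is not stated. There were 3 libraries of each genotype, numbered 1 to 3 within it, and the numbers pair no mice.

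Peroxisome proliferator-activated receptors (PPARs) are fatty acid sensors that bind DNA as partners of retinoid X receptors (RXRs). Bound ligand exchanges corepressors such as NCoR1 for coactivators such as PGC-1α, which also coactivates the estrogen-related receptor ERRα at genes of the respiratory chain. In the kidney this machinery is best known from the tubular epithelium, which runs on fatty acid oxidation.

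The promoters of the regulators were read from RefSeq on GRCm38.p6 as windows of 250 bases before to 50 bases after each start, on the strand of the gene. Windows were found for 9 of the 10 regulators (15 windows, because some genes have several starts). The direct repeat bound by PPAR and RXR, searched on both strands as a direct repeat of AGGNCA with 1 base between the copies, was in 0 of these 15 windows, in 1 of the 44 windows of a list of PPAR target genes and in 0.381% of all 32851 windows. The single hexamer AGGTCA, which each copy in that repeat may spell, was in 3 of the 15 windows, those of *Rxra* and *Pparg*, against 16.3% of all windows. The core of the cAMP response element, TGACG, was in 4 of the 15, those of *Ppargc1a*, *Ppara*, *Ppard* and *Rxrb*, against 20.8% of all. The motif of nuclear respiratory factor 1, the palindrome of GCGCA and its reverse complement TGCGC, was in 1 of the 15, that of *Ppara*, against 0.971% of all. The ERR element TCAAGGTCA, which contains the hexamer, was in 0 of the 15 and in 0.423% of all. These matches describe letters only. Upstream stretches are shown for the coactivator that led the regulators in level, for the receptor of fatty acid oxidation, for its RXR partner and for the target gene with the full repeat. Capitals mark the motif, and all are written 5′ to 3′ on the strand of the gene.
Ppargc1a (chr5:51567740-51567804, minus strand, TGACG on the opposite strand): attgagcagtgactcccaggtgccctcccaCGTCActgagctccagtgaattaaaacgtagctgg
Ppara (chr15:85735706-85735775, plus strand, NRF-1 motif on both strands): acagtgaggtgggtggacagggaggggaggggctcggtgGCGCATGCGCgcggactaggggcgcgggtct
Rxra (chr2:27709214-27709279, plus strand, AGGTCA on the same strand): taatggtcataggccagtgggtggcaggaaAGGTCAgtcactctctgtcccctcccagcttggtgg
Fabp1 (chr6:71199782-71199854, plus strand, repeat on the opposite strand): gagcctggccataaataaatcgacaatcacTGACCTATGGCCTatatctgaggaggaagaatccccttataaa

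Values are normalized counts, the reads of a gene divided by a single factor for the library, and the libraries held 10263382 to 12248797 reads over the listed genes. For *Terf1*, which encodes TRF1, replicates 1 to 3 held 0.891, 253 and 235 under the Trf1+/+ label and 110.0, 7.65 and 12.4 under the Trf1flox/flox label. The library labelled Trf1+/+ replicate 1 had 1 *Terf1* read, against its label, and also had the lowest median over all listed genes (13.4 against 118 to 148 in the other 5). Trf1flox/flox replicate 1 had 128 *Terf1* reads, above the 7 and 18 of the other Trf1flox/flox libraries and below the other Trf1+/+ libraries. The collagen and stromal markers that define fibroblasts were scarce: 3 of 16 were listed, and their summed level was 6.23 to 215 normalized counts in Trf1+/+ and 3.44 to 98.4 in Trf1flox/flox libraries. *Col1a2* itself stayed at or below 1.78. All 15 proximal tubule markers were listed, with sums of 22865 to 97752 in Trf1+/+ and 24252 to 130572 in Trf1flox/flox libraries, and all 12 markers of the loop, distal tubule and collecting duct, with sums of 75122 to 127267 and 57110 to 156993. Tubular transcripts were thus abundant in every library, although the labels call the cells fibroblasts. Of the 10 endothelial markers 2 were listed (sums of 8.02 to 297 and 1.72 to 307), of the 12 immune markers 5 (68.0 to 1851 and 57.6 to 2526, with *C1qb* at 0 throughout), of the 5 erythroid markers 5 and of the 5 podocyte markers 0. A library at 3 reads or fewer for a gene was taken as at the floor, which covers counting error only, since reads were amplified by PCR without molecular identifiers.

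Per kilobase of exon, the coactivator gene *Ppargc1a* was by far the most abundant regulator and *Rxrb* the least. The mean over the 6 libraries was 279.7 ± 130.1 normalized counts per kilobase (SD, n = 6) for *Ppargc1a* and 70.1 ± 18.5 for the corepressor *Ncor1*. *Ppargc1a* was above *Ncor1*, and *Ncor1* above *Ppargc1b*, the next in order, in 6 of 6 libraries. A middle group followed with *Ppargc1b* at 28.5 ± 25.5, *Rxra* at 23.6 ± 19.9, *Esrra* at 21.1 ± 21.2, *Nrip1* at 16.3 ± 16.2 and *Ppara* at 13.7 ± 11.98 normalized counts per kilobase. Within this group neighbours in the order were above each other in only 3 or 4 of 6 libraries, so their order is not separated from the spread. *Ppard* (5.54 ± 7.95) and *Rxrb* (0.613 ± 1.40) had the lowest means. *Ppara* was above *Ppard* in only 3 of 6 libraries, so *Ppard* is not separated from the middle group either.

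**Figure D1:**
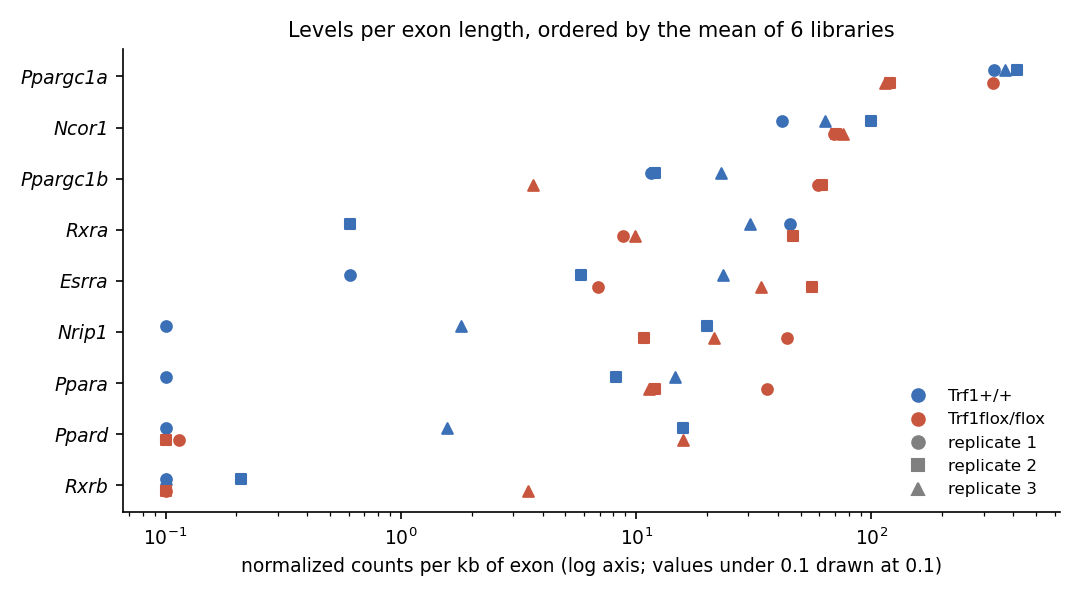
Normalized counts per kilobase of exon (log axis) of the 9 listed regulators in each of the 6 libraries, ordered by their mean; colours give the genotype and symbols the replicate. Ppargc1a lies to the right of all other genes in every library, while the points of the 7 genes below Ncor1 are widely spread.

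No regulator passed the test between the genotypes. Of the 8 tested, 0 had an adjusted p under 0.05 in limma, which was fitted on log2(normalized count + 1) over 9966 genes and called 0% of them. At an unadjusted p under 0.05 the count was also 0 of 8 in limma, against 4.56% of all tested genes, in edgeR (1.97% of all) and in DESeq2 (4.27% of all). In sign, 6 were higher and 2 lower in Trf1flox/flox, with a median log2 fold change of 0.67 beside 0.20 over all tested genes, of which 55.9% were higher. The genotypes did not overlap for 1 of the 8, *Ppargc1a*, which was lower in Trf1flox/flox, against 8.68% of all tested genes in either direction and 3.33% in that direction. Rescaling the libraries to a common upper quartile moved the median of all genes from 0.20 to 0.38, and *Ppargc1a* then overlapped too.

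**Figure D2:**
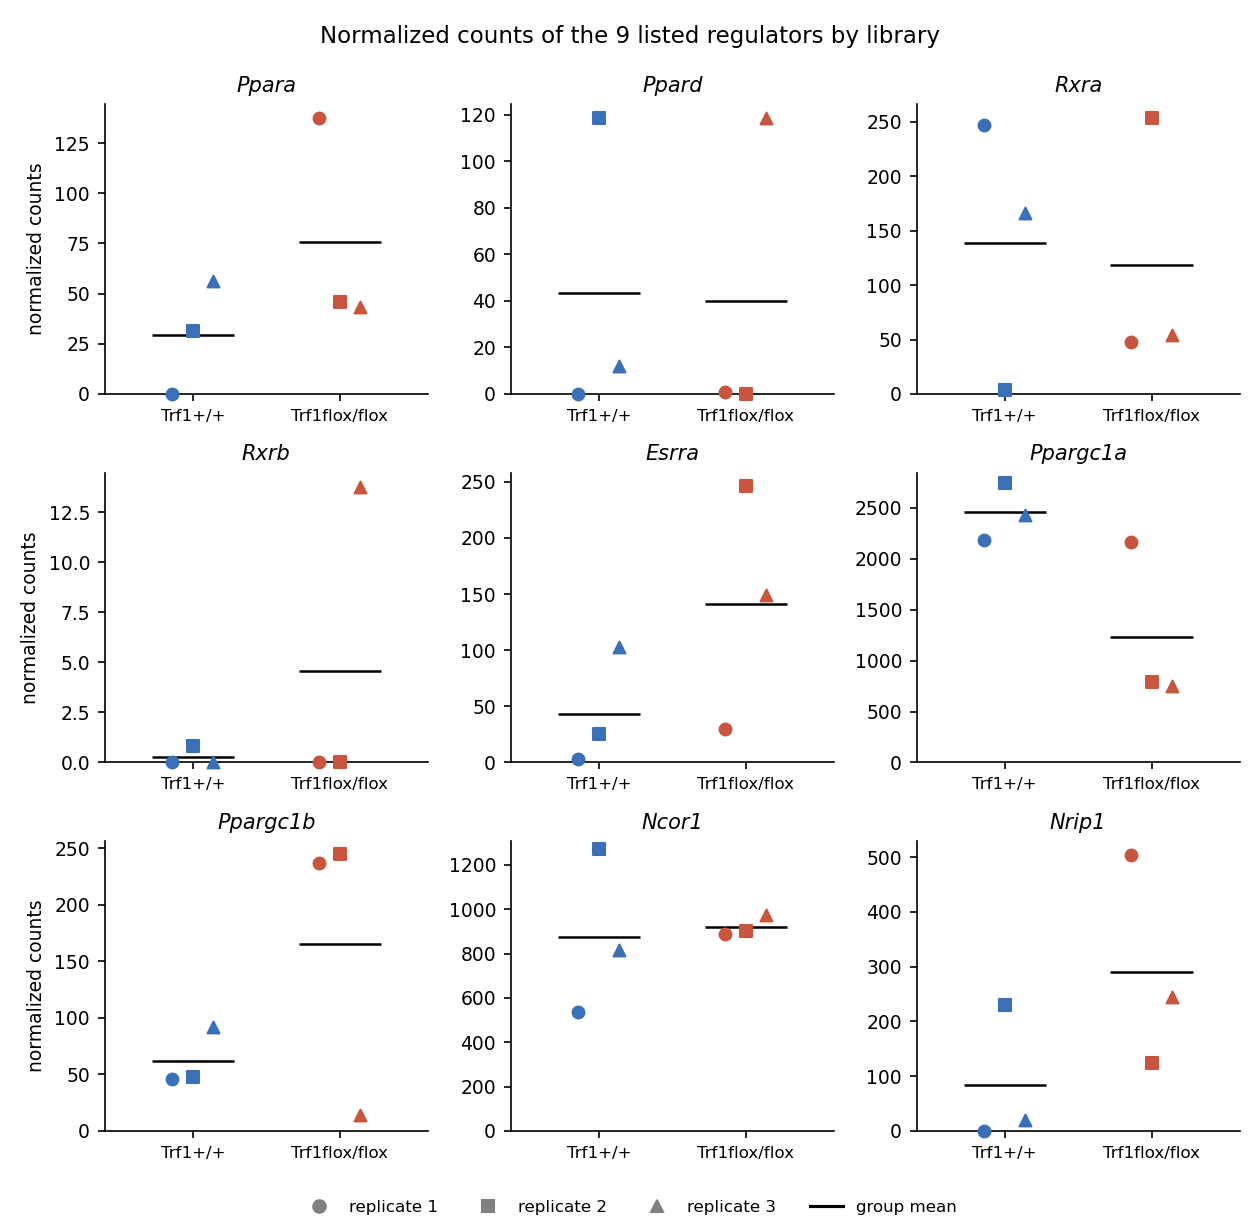
Normalized counts of the 9 listed regulators in the 6 libraries, each panel with its own axis from 0; symbols mark replicates and the black line the mean of the group. Ppargc1a is the gene whose Trf1flox/flox libraries all lie below the Trf1+/+ libraries, by a narrow margin for replicate 1.

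*Ppargc1a* encodes PGC-1α, the coactivator that drives mitochondrial biogenesis (ENSMUSG00000029167, chromosome 5, 51454250 to 51567726 on GRCm38). It had 2187, 2743 and 2429 in Trf1+/+ against 2164, 789 and 751 normalized counts in Trf1flox/flox libraries. The Trf1+/+ libraries lay close together. In Trf1flox/flox, replicate 1, the library of that group with the most *Terf1* reads, was near them, and replicates 2 and 3 were well below them. The library labelled Trf1+/+ replicate 1 had 1 *Terf1* read and 2187 normalized counts of *Ppargc1a*. A relation to *Terf1* was not tested. The means were 2453 ± 279 and 1235 ± 805 (SD, n = 3 each), and the log2 fold change was -1.17 (standard error 0.82, adjusted p = 0.996 from limma). An exact permutation test (two-sided) on these 6 values gave p = 0.1, the lowest that 3 against 3 can reach. Groups that do not overlap always give that value, so it adds nothing to the lack of overlap. With each library left out in turn the log2 fold change lay between -1.66 and -0.90, with -1.25 when the library labelled Trf1+/+ replicate 1 was dropped. Among the 12125 listed genes its level sat at percentiles 92.9, 97.0 and 96.7 in Trf1+/+ and 96.4, 85.4 and 88.0 in Trf1flox/flox libraries.

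Of the 10 tested markers of the loop, distal tubule and collecting duct, 5 were higher and 5 lower in Trf1flox/flox. *Slc12a3* and *Calb1* were the 2 whose genotypes did not overlap. Both were lower, against 3.33% of all tested genes in that direction and 8.68% in either direction. *Slc12a3*, the thiazide-sensitive sodium chloride cotransporter, had 26373, 35066 and 25899 in Trf1+/+ against 17956, 14271 and 18752 normalized counts in Trf1flox/flox libraries, which did not overlap (log2 fold change -0.77, standard error 0.73). *Calb1*, the calcium-binding protein calbindin, had 27371, 16530 and 11368 in Trf1+/+ against 11124, 1341 and 7907 in Trf1flox/flox libraries. *Pvalb*, a further distal convoluted tubule marker, overlapped, at 8159, 6466 and 1133 against 1950.4, 1651 and 2722. So did the loop of Henle markers *Slc12a1*, at 1641, 11080 and 7646 against 26372, 12964 and 4250.4, and *Umod*, at 33502, 51495 and 27793 against 80777, 35062 and 21896. The ratio of *Ppargc1a* to *Slc12a3* within a library was 0.0829, 0.0782 and 0.0938 in Trf1+/+ and 0.121, 0.0553 and 0.0401 in Trf1flox/flox, so that the genotypes overlapped (exact two-sided permutation test of the log2 ratio, p = 0.5). The ratio to *Umod* was 0.0653, 0.0533 and 0.0874 against 0.0268, 0.0225 and 0.0343, without overlap (exact test, p = 0.1, a value that the lack of overlap fixes). *Pvalb*, *Slc12a1* and these ratios were chosen after the values were seen. The ratios are descriptions only, and the part of the tubule markers in the *Ppargc1a* values was not tested. In bulk RNA, fewer cells of a type and less RNA per cell cannot be told apart.

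**Figure D3:**
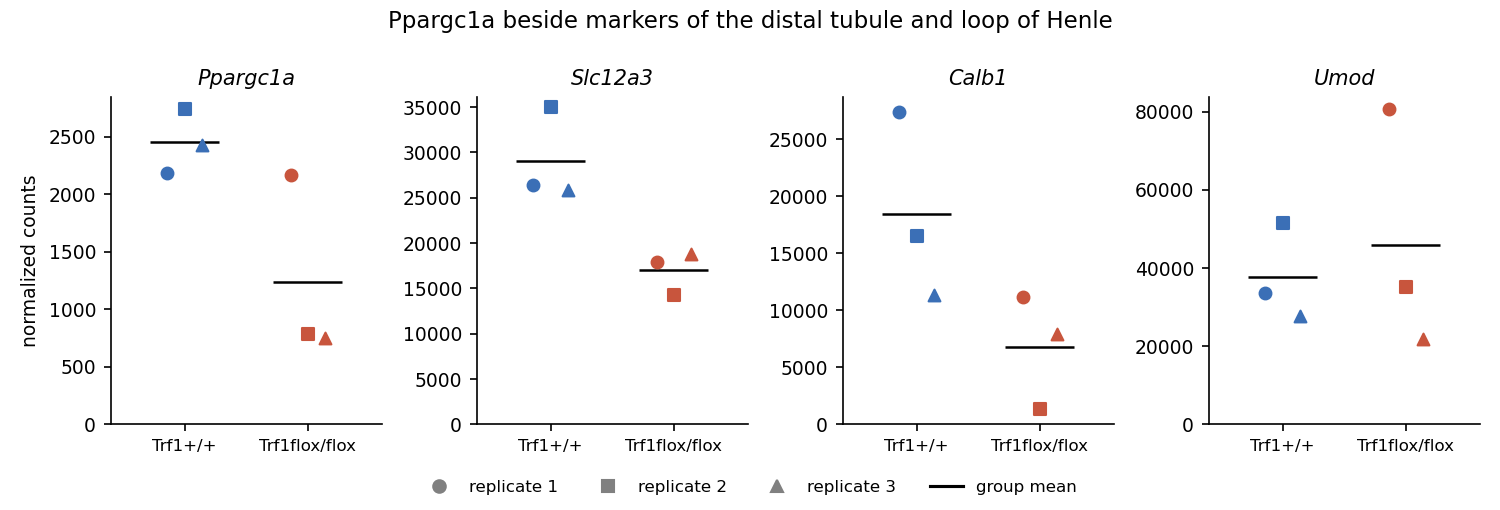
Normalized counts of Ppargc1a and of 3 tubule markers in the 6 libraries, each panel with its own axis from 0 and the group mean as a line. Slc12a3 and Calb1 lie lower in all Trf1flox/flox libraries, as Ppargc1a does, and Umod overlaps between the genotypes.

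*Ppargc1b* encodes the related coactivator PGC-1β (ENSMUSG00000033871, chromosome 18, 61298136 to 61400431). Its values were 46.3, 48.1 and 91.6 in Trf1+/+ against 237, 245 and 14.5 normalized counts in Trf1flox/flox libraries. Replicates 1 and 2 of Trf1flox/flox were above all Trf1+/+ libraries and replicate 3 was below them. The log2 fold change was 0.69 (standard error 1.31, adjusted p = 0.996 from limma) and ranged from 0.02 to 2.01 when single libraries were dropped, the highest without Trf1flox/flox replicate 3. The ratio of *Ppargc1a* to *Ppargc1b* was 47.2, 57.1 and 26.5 in Trf1+/+ and 9.13, 3.22 and 51.9 in Trf1flox/flox libraries, which overlapped (exact two-sided permutation test, p = 0.3).

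*Esrra* encodes ERRα, the orphan receptor through which PGC-1α acts on respiratory genes (ENSMUSG00000024955, chromosome 19, 6910977 to 6921813; 3.74% of its exon bases are shared with other genes, *Trmt112* on the opposite strand among them, and the libraries keep no strand). It had 2.67, 25.7 and 102 in Trf1+/+ against 30.1, 246 and 149 normalized counts in Trf1flox/flox libraries. Trf1flox/flox replicates 2 and 3 were above all Trf1+/+ libraries, and replicate 1 was within their range. The log2 fold change of 2.27 (standard error 1.52, adjusted p = 0.996 from limma) fell to 1.00 without the library labelled Trf1+/+ replicate 1, where the gene had 3 reads. On all 6 libraries it was 1.64 with edgeR and 1.69 with DESeq2. The log2 fold changes of *Esrra* and *Ppargc1a* had opposite signs, neither passed the test, and *Esrra* overlapped between the genotypes. The other ERR genes overlapped: *Esrrb* had 202, 260.2 and 542 in Trf1+/+ against 334, 343 and 103 in Trf1flox/flox, and *Esrrg* had 1090, 141 and 985 against 329.9, 669.9 and 170.2 (both chosen after their values were seen).

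*Ppara* encodes PPARα, the receptor that switches on fatty acid oxidation during fasting (ENSMUSG00000022383, chromosome 15, 85734983 to 85802819). It had 0, 31.5 and 56.2 in Trf1+/+ against 137, 45.9 and 43.4 normalized counts in Trf1flox/flox libraries. Trf1flox/flox replicate 1 was highest, and the other libraries with reads lay between 31.5 and 56.2 whichever their genotype. The means were 29.2 ± 28.2 and 75.6 ± 53.6 (SD, n = 3 each). The log2 fold change was 2.43 (standard error 1.69, adjusted p = 0.996 from limma). Without the library labelled Trf1+/+ replicate 1, which had 0 reads of the gene, it was 0.62. On all 6 libraries it was 1.31 with edgeR and 1.37 with DESeq2.

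*Ppard* encodes PPARδ, a widely expressed family member (ENSMUSG00000002250, chromosome 17, 28232700 to 28301474). It had 0, 118 and 11.8 in Trf1+/+ against 0.859, 0 and 119 normalized counts in Trf1flox/flox libraries. A single library of each genotype held most of its reads, and 3 of the 6 libraries were at the floor. The log2 fold change of -0.93 (standard error 2.48) turned positive without Trf1+/+ replicate 2 (0.76) or Trf1flox/flox replicate 2 (0.37). Summed erythroid markers were 238, 2150 and 10472 in Trf1+/+ against 121, 285 and 52403 normalized counts in Trf1flox/flox libraries. They were lowest in the 3 libraries where *Ppard* was at the floor. Trf1+/+ replicate 3 had a higher sum than replicate 2 (10472 against 2150) but less *Ppard* (11.8 against 118). *Alas2*, the gene most like *Ppard* over the 6 libraries, is one of these markers. Their part in the *Ppard* values was not tested.

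The RXR genes were no more even. *Rxra* encodes RXRα, the usual partner of the PPARs in epithelia (ENSMUSG00000015846, chromosome 2, 27676440 to 27762957). It had 247, 3.31 and 167 in Trf1+/+ against 48.1, 254 and 53.7 normalized counts in Trf1flox/flox libraries. High and low libraries occurred in both genotypes, and the highest value exceeded the lowest by 76.5-fold. The log2 fold change of 0.64 (standard error 1.78) was -0.20 with edgeR and -0.21 with DESeq2 on the recovered reads, and it was also negative without Trf1+/+ replicate 2 (-1.21) or Trf1flox/flox replicate 2 (-0.12). *Rxrb*, encoding RXRβ (ENSMUSG00000039656, chromosome 17, 34031812 to 34038399), had 0, 0.829 and 0 in Trf1+/+ against 0, 0 and 13.8 in Trf1flox/flox libraries, the last from 20 reads. It was at the floor in 5 of 6 libraries and was not detectable in them at this depth.

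*Ncor1*, the scaffold of the corepressor complex that carries the deacetylase HDAC3, was the steadiest regulator (ENSMUSG00000018501, chromosome 11, 62316426 to 62458541). It had 536, 1269 and 817 in Trf1+/+ against 887, 904 and 974 normalized counts in Trf1flox/flox libraries. The Trf1flox/flox libraries fell inside the range of the Trf1+/+ libraries, with means of 874 ± 369.9 and 921 ± 46.1 (SD, n = 3 each). The highest library exceeded the lowest by 2.37-fold, and the coefficient of variation over the 6 libraries was 26.4%, against 46.5% for *Ppargc1a* and 84.3% to 229% for the other 7. The log2 fold change was 0.16 (standard error 0.77) and -0.15 without the library labelled Trf1+/+ replicate 1. The ratio of *Ppargc1a* to *Ncor1*, coactivator to corepressor, was 4.08, 2.16 and 2.97 in Trf1+/+ and 2.44, 0.873 and 0.771 in Trf1flox/flox libraries, which overlapped (exact two-sided permutation test, p = 0.2).

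*Nrip1* encodes RIP140, a corepressor of PPAR, ERR and estrogen receptors that restrains oxidative genes (ENSMUSG00000048490, chromosome 16, 76287400 to 76373827). It had 0, 229.5 and 20.7 in Trf1+/+ against 504, 123 and 245 normalized counts in Trf1flox/flox libraries. Trf1flox/flox replicates 1 and 3 were above all Trf1+/+ libraries, and replicate 2 was below Trf1+/+ replicate 2. This gave the largest log2 fold change among the 8 tested regulators, 3.87 (standard error 2.02, unadjusted p = 0.104 and adjusted p = 0.996 from limma). Without the library labelled Trf1+/+ replicate 1, which had 0 reads of it, the value was 1.82. Without Trf1+/+ replicate 2 it was 5.74, with an adjusted p of 0.548 from limma, the lowest of any regulator in any alternative. On all 6 libraries the log2 fold change of *Nrip1* was 1.73 with edgeR and 1.80 with DESeq2.

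**Figure D4:**
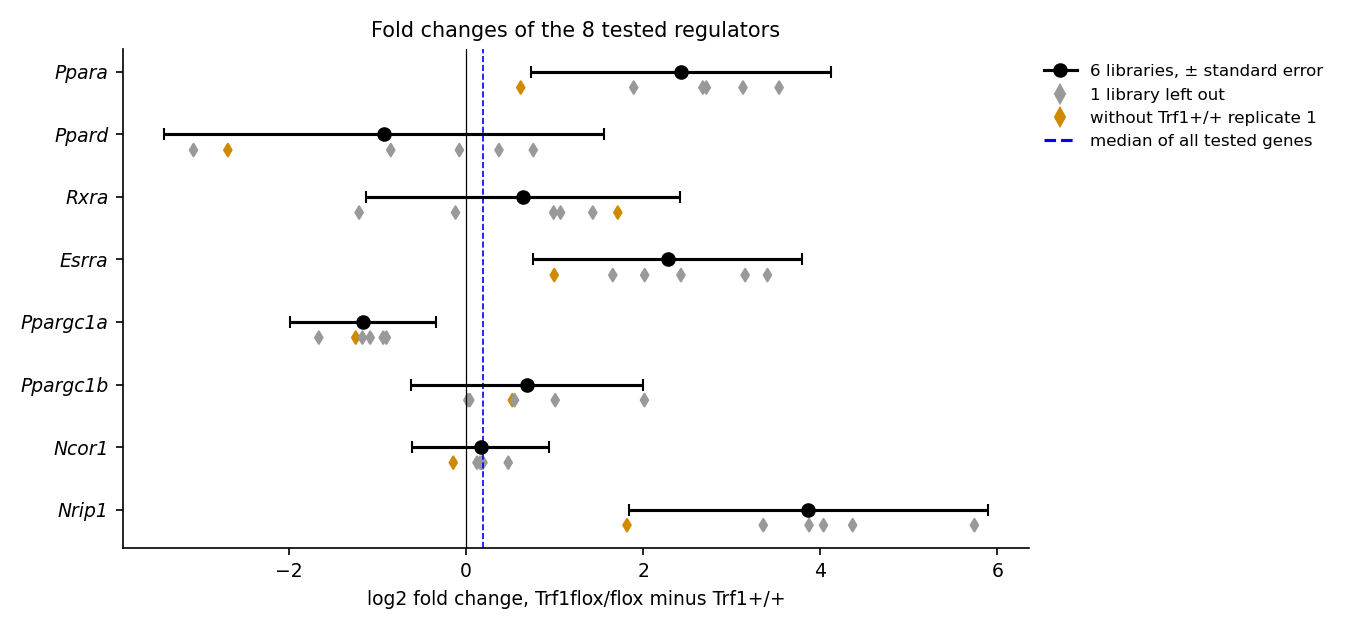
Log2 fold change (Trf1flox/flox minus Trf1+/+) of the 8 tested regulators with its standard error (black), the values with 1 library left out (diamonds) and the median of all tested genes (dashed line). Ppara, Esrra and Nrip1 are lowest, and nearest 0, without the library labelled Trf1+/+ replicate 1.

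In the library labelled Trf1+/+ replicate 1, 4 of the 9 listed regulators (*Ppara*, *Ppard*, *Rxrb* and *Nrip1*) were at 0 reads, against 0 to 2 in each of the other 5. Without it 5 regulators were higher in Trf1flox/flox and the median log2 fold change was 0.57, beside -0.03 over all tested genes. Dropping other libraries moved the regulators' median further, to 0.27 without Trf1flox/flox replicate 2, 1.22 without Trf1+/+ replicate 3 and 1.501 without Trf1flox/flox replicate 3. *Ppargc1a* still did not overlap without the library labelled Trf1+/+ replicate 1, against 17.9% of all tested genes.

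For each tested regulator, the gene most like it was taken as that with the highest Pearson r of log2 values over the 6 libraries. These were *Paxbp1* for *Ppara* (r = 0.997), *Alas2* for *Ppard* (0.988), *Arhgef7* for *Rxra* (0.990), *Tnrc6b* for *Ppargc1a* (0.985), *Evpl* for *Ppargc1b* (0.981), *Prkcd* for *Esrra* (0.988), *Atrn* for *Ncor1* (0.993) and *Lurap1* for *Nrip1* (0.996). High values were common over these 6 points, as 852 of the 9966 tested genes (8.55%) exceeded 0.9 with *Ppara* and 18 (0.181%) with *Ppargc1b*. All of these values share the same 6 libraries and their depth.

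Genes downstream of the receptors were taken from a list of 48 PPAR targets, of which 40 were listed and 37 tested. None had an adjusted p under 0.05 in limma, and 25 were higher and 12 lower in Trf1flox/flox. Their median log2 fold change was 0.29, beside 0.20 over all genes (0.59 and -0.03 without the library labelled Trf1+/+ replicate 1). Of the 15 proximal tubule markers, all tested, 13 were higher and 2 lower, with a median of 0.88 (0.75 without that library). The part of these markers in the values of the targets was not tested. The targets' median was 0.09 without Trf1+/+ replicate 2, 0.15 without Trf1+/+ replicate 3, 0.17 without Trf1flox/flox replicate 1, 0.51 with upper quartile scaling, 0.19 with edgeR and 0.13 with DESeq2. Before adjustment 3 fell under 0.05, *Cyp4a14*, *Scd1* and *Acot1*, all higher, as 3.54% of all tested genes did in that direction. *Cyp4a14* and *Scd1* reached the filter only through the 3 Trf1flox/flox libraries, where they were high, so neither their count nor their p supports a statement about the targets. On the recovered reads DESeq2 placed the same pair, subject to the same selection, under an adjusted p of 0.05, where it placed 0.604% of all genes, and edgeR placed none, with 2 targets at an unadjusted p under 0.05. Among the 37 tested targets the genotypes did not overlap for 5, these 3 with *Acaa1b* and *Slc27a1*. All of them were higher in Trf1flox/flox, against 5.35% of all tested genes in that direction. For *Cyp4a14* and *Scd1* the filter fixed this outcome, so this count supports no statement about the targets either.

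*Cyp4a14*, a fatty acid ω-hydroxylase and a classical PPARα target, had 0, 0.829 and 0 in Trf1+/+ against 1535, 1078 and 259.8 normalized counts in Trf1flox/flox libraries (limma log2 fold change 9.27, standard error 0.98, adjusted p = 0.110). Over the alternatives that value moved between 7.18 and 11.55, since it rests on the pseudocount or prior. *Scd1*, the stearoyl-CoA desaturase, had 0, 2.49 and 0.985 against 943, 89.6 and 55.1 (log2 fold change 6.47, standard error 1.31, adjusted p = 0.274 from limma). *Acot1*, an acyl-CoA thioesterase, had 37.4, 35.6 and 60.1 against 363, 507 and 109.6 (log2 fold change 2.63, standard error 0.91, adjusted p = 0.937 from limma); part of its reads could belong to the close paralog *Acot2*, at 55.2, 24.0 and 78.8 against 186, 255 and 69.6. *Fabp1*, the fatty acid binding protein whose promoter holds the repeat shown above, had 0 reads in all Trf1+/+ libraries and 88.5, 0 and 30.3 normalized counts in Trf1flox/flox libraries, a mean at least 14.6-fold above the floor of 3 reads per library. *Vnn1*, the pantetheinase vanin-1 and another PPARα target, was likewise at 0 in all Trf1+/+ libraries and at 921, 6.56 and 406 in Trf1flox/flox libraries, at least 164-fold higher by the same floor and without overlap. *Fabp1* and *Vnn1* did not pass the filter, were not tested and were chosen after their values were seen. *Fabp1* overlapped between the genotypes, and so did *Acot2*, chosen in the same way.

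The targets with the highest means did not share this pattern. *Acadm*, the medium-chain acyl-CoA dehydrogenase, had 13668, 4096 and 3436 in Trf1+/+ against 11174, 6072 and 5465 normalized counts in Trf1flox/flox libraries. *Slc27a2*, a very long-chain acyl-CoA synthetase, had 4177, 955 and 10789 against 5771, 6041 and 10494, and *Ech1*, of peroxisomal and mitochondrial β-oxidation, had 7965, 2609 and 4456 against 5824, 5275 and 5537. All 3 overlapped. The order of the libraries by *Ppara* differed from that by these targets. *Cyp4a14* and *Scd1* had at most 1 read in Trf1+/+ replicate 3, where *Ppara* (56.2) was above its level in Trf1flox/flox replicates 2 and 3. These *Ppara* values come from few reads, 57 against 42 and 63. A relation of *Ppara* to the targets was not tested.

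**Figure D5:**
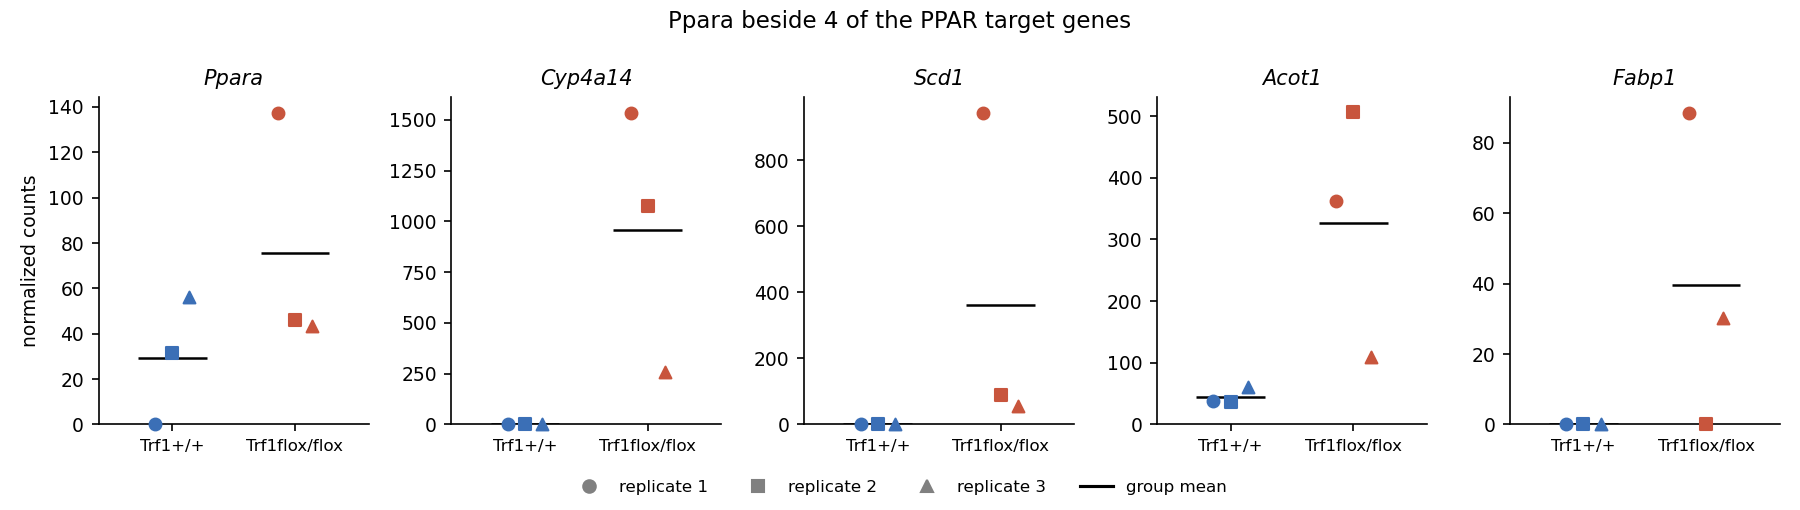
Normalized counts of Ppara and of 4 PPAR target genes in the 6 libraries, each panel with its own axis from 0 and the group mean as a line. Cyp4a14, Scd1 and Acot1 are higher in every Trf1flox/flox library than in any Trf1+/+ library, while Ppara overlaps and Fabp1 is at 0 in Trf1flox/flox replicate 2.

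Partners of PGC-1 and genes of mitochondrial biogenesis leaned the other way without passing the test. Of 25 genes 24 were listed and 23 tested, 7 higher and 16 lower in Trf1flox/flox, with a median log2 fold change of -0.42 and 0 under an adjusted p of 0.05. Without the library labelled Trf1+/+ replicate 1 the median was -0.09, close to the -0.03 over all tested genes, with 9 of the partners higher. The median of the partners was -0.69 without Trf1+/+ replicate 2 and -0.21 with upper quartile scaling. The 1 gene with an unadjusted p under 0.05, where 1.01% of all tested genes were lower, was *Gabpa*, the DNA-binding subunit of nuclear respiratory factor 2, at 998, 429 and 194 in Trf1+/+ against 2.58, 19.7 and 229 normalized counts in Trf1flox/flox libraries, which overlapped (log2 fold change -4.09, standard error 1.67, adjusted p = 0.996 from limma). *Nrf1* was at 0.891, 210.5 and 355 against 6.01, 14.2 and 20.7, and *Tfam*, the mitochondrial transcription factor, was at 0.891, 638 and 54.2 against 269, 195 and 376 (both chosen after their values were seen). The respiratory genes with the highest means overlapped throughout. *Atp5b* of ATP synthase had 29084, 20419 and 16942 against 20149, 26843 and 17001, *Cox4i1* of cytochrome oxidase had 22317, 21263 and 11143 against 15084, 11910 and 16843, and *Cycs*, cytochrome c, had 20904, 14482 and 9335 against 7435, 12346 and 14336.

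Among 28 other coactivators and corepressors, all tested, 19 were higher and 9 lower in Trf1flox/flox with a median log2 fold change of 0.50, and 0 had even an unadjusted p under 0.05 in limma. Without the library labelled Trf1+/+ replicate 1, where 11 of them were at the floor, 10 were higher and the median was -0.20. It was 1.34 without Trf1+/+ replicate 2, 0.91 without Trf1+/+ replicate 3, 1.18 with the filter at 50, 0.062 with edgeR and 0.087 with DESeq2. The genes with the highest means were *Tbl1x*, a subunit of the NCoR complex, at 2998, 19.9 and 383 against 174, 294 and 504, *Ncoa4* at 1041, 528 and 236 against 902, 649 and 643, and the acetyltransferase *Crebbp* at 154, 435 and 765 against 516, 415 and 661. All 3 overlapped.

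Of 36 other nuclear receptors 25 were listed and 23 tested, 15 higher and 8 lower, with a median log2 fold change of 0.63 and 0 under an adjusted p of 0.05. That median was 0.046 with edgeR, 0.029 with DESeq2, 0.25 with the filter at 50, 0.40 with a pseudocount of 5, 0.12 without Trf1flox/flox replicate 1 and 0.20 without Trf1flox/flox replicate 2. *Nr0b2*, encoding the small heterodimer partner that represses other receptors, had an unadjusted p under 0.05 (1.01% of all tested genes in that direction) and was at 1283, 191 and 122 in Trf1+/+ against 0, 0 and 46.9 normalized counts in Trf1flox/flox libraries (log2 fold change -6.42, standard error 1.86, adjusted p = 0.673 from limma). *Vdr*, the vitamin D receptor and another partner of RXR, was at 2325, 1739 and 1368 against 1061, 682 and 442. *Nr0b2*, *Vdr*, *Nr1d1* and *Nr2c2* were the 4 of 23 tested receptors whose genotypes did not overlap, all lower in Trf1flox/flox, against 3.33% of all tested genes in that direction, and they were named after their values were seen. The receptors *Hnf4a*, of hepatic and proximal tubule identity, at 635, 384 and 1122 against 644, 1541 and 1134, and *Nr1h4*, the bile acid receptor, at 267, 347 and 861 against 186, 2121 and 1401, overlapped.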

How the data were processed

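RNA of sorted kidney cells was sequenced as 3 Trf1+/+ and 3 Trf1flox/flox unstranded libraries from oligo(dT)-primed, template-switched and PCR-amplified cDNA. The authors trimmed adaptors and poly(A), aligned with TopHat2 2.0.10 on Bowtie 1.0.0 and SAMtools 0.1.19, and counted genes with HTSeq 0.6.1, per the labels and the methods. The methods name GRCm38 and the submitters' processing notes GRCm39, TopHat was set to a second-strand library, and the strand setting of the counting is not given in the sources used here. The deposited values are normalized counts, a signal in which the gene counts are divided by 1 size factor per library. All values (100%) were whole multiples of the value of 1 read within 0.01 reads, so reads were recovered (10263382 to 12248797 per library). As 1 file was deposited with 1 column for each library, 0 columns were unmapped.

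The test was limma 3.58.1 (lmFit, eBayes without a trend) on log2(normalized count + 1) over 9966 genes, those reaching 10 normalized counts in 3 or more libraries, with Benjamini-Hochberg adjustment over all of them. Fold changes are on that scale and, for low genes, depend on the pseudocount. They could be larger or smaller than those of the count models. *Nrip1* was 3.87 in limma, 1.73 in edgeR and 1.80 in DESeq2, whereas *Ppargc1b* was 0.69, 1.36 and 1.42. The study gives 3 mice per genotype for the sequencing, and the labels do not name the mouse behind a library. Alternatives were pseudocounts of 0.5 and 5, no filter, a filter at 50, upper quartile scaling, a mean-variance trend, each library left out, and edgeR 4.0.16 and DESeq2 1.42.0 on the recovered reads. The code was tested on simulated data. Gene positions and exon lengths (union of exons) are from GENCODE M21 on GRCm38, which held 98.2% of the listed symbols; the files give no coordinates. Promoter windows are from RefSeq (GRCm38.p6).

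The regulators and the lists (PPAR targets, PGC-1 partners, coregulators, nuclear receptors, cell type markers), which were written from general knowledge, were chosen with earlier results of these data known. Named are all regulators, from each other list the genes with an unadjusted p under 0.05 (at most 6) and the 3 with the highest mean, from marker lists the 3 with the highest mean (values are given where a result has them beside it, the rest as sums), and the gene most like each regulator. The values of 1 gene of these lists are not reported here.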

Additional observations from a re-analysis of the deposited data

How the results depend on the processing

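Libraries are 3 per genotype, so an exact test of 1 value cannot go below p = 0.1, and the median SD within a genotype was 2.17 on the log2 scale. Depth limits values at or under 3 reads. No regulator was called under any alternative. Over all genes limma and edgeR called 0 and DESeq2 called 58, of which 2 were PPAR targets, *Cyp4a14* and *Scd1*, both past the filter only through Trf1flox/flox and with at most 3 reads in any Trf1+/+ library. *Ppargc1a*, *Ppargc1b*, *Esrra*, *Ppara* and *Nrip1* kept their sign in all alternatives run. The regulators whose genotypes do not overlap numbered 1, against 8.68% of all tested genes, 0 with upper quartile scaling and 1 to 3 with a library left out. A lack of overlap is more common with fewer libraries, at 17.9% of all tested genes without Trf1+/+ replicate 1. That share was not computed for the other libraries left out, so the rise to 3 is not a result about the regulators. Regulators lower in Trf1flox/flox numbered 2, and 1 with the filter at 50 normalized counts, where *Ppara* and *Ppard* were not tested; PGC-1 partners that were higher then numbered 4 in place of 7. The coregulators that were higher numbered 10 to 19 with a library left out, the 10 without Trf1+/+ replicate 1. The median of the other nuclear receptors was 0.63, 0.046 with edgeR and 0.029 with DESeq2. With a library left out, *Ppard* lay between -3.08 and 0.76, *Rxra* between -1.21 and 1.71, *Ncor1* between -0.15 and 0.48 and *Terf1* between -3.38 and 0.15. *Rxra* was also reversed with edgeR (-0.20) and DESeq2 (-0.21). The causes were not tested. No paired analysis was possible because the labels give no replicate numbers and the numbers used here only name libraries.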
